A study of Caenorhabditis elegans with 8 samples.

Results

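Many small non-coding genes of Caenorhabditis elegans are annotated inside exons of a protein-coding gene, on the opposite strand. The rows examined here are the 283 of 45461 rows of a count table that are annotated as ncRNA (279 rows) or antisense_RNA (4 rows) and have at least 90% of their exon bases inside exons of exactly 1 opposite-strand protein-coding gene, called the host below. They lie in 259 hosts, on all 6 chromosomes of the nuclear genome, and were picked by annotation (Ensembl WBcel235) and not by their counts. A further 9 rows were left out by name, 7 of which otherwise meet the same rule. The cut-off separates near neighbours: F31B12.8, just inside it, has 90.3% of its bases nested and 0 counts, while T13F3.10, just outside, has 89.6% nested and 122 counts.

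RNA came from L2 larvae grown at 20 °C on live bacteria, all carrying Prpl-17::Grx1-roGFP2, a redox sensor fused to glutaredoxin under the promoter of a ribosomal protein gene. The labels give an oxidized group of 4 libraries and a reduced group of 4 libraries, numbered 1, 2, 3 and 5 in each, with about 10000 pooled worms per replicate. The sources used here do not say how worms were assigned to a group. For replicate 5 the source name contradicts the redox label of both libraries, and the redox label was followed; the titles of both libraries use High for reduced and Low for oxidized, as in the other replicates, which goes with the redox label.

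Libraries held 635990 to 1089259 counts, so 3 counts, taken as the detection floor, equal 2.71 to 4.70 CPM (the count scaled to a common library size); this covers counting error only. As a check of stage, rows of the 6 yolk protein genes vit-1 to vit-6, made by adults, held 2 counts in all 8 libraries together, the adult collagen col-19 held 0, and 28 of 31 rows of major sperm protein genes held 0. The intestinal markers elt-2 and ges-1 held 6 and 20 counts, against 1935 for the muscle myosin unc-54. Many coding rows were low in this table, so low values here are a weak check of stage. The samples are whole worms, so fewer cells of a type and less RNA per cell cannot be told apart in any value that follows.

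In a strand-specific library each read keeps the strand of the RNA it came from, so a transcript of the host and a transcript of the non-coding gene inside it can be counted apart, provided that the counting program is told which read strand stands for the RNA. Natural antisense transcripts exist in worms and can regulate the gene they overlap, but many short non-coding annotations inside exons are predictions with no known function. Whether the counts of a nested row stand for that RNA or for its host depends on the strand setting of the counting, which the sources used here do not state. Host functions below are therefore background on the gene that shares the bases, not a statement that its transcript was measured.

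Although nested rows are shorter than their hosts, most held more counts than the host row. Of 271 pairs whose host has a row of its own, 206 had a count in either row, and the nested row held more counts in 157 of these and the host row in 49. The 271 nested rows held 84576 counts over 37488 exon bases, or 2.26 counts per exon base, against 33332 counts over 625391 exon bases, or 0.0533, for their 249 hosts. Either row held at least 80 counts over the 8 libraries in 75 pairs, and counted per exon base the nested row was denser than the host row in 66 of them (88%). That share depends on which row brings a pair in, since a count minimum favours the shorter row: among the 16 pairs whose host row held at least 80 counts, the nested row was denser in 7. The nested rows of the 75 pairs held 82142 counts together, against 32364 for the hosts, of which the single row of sqt-3 held 26235. The median ratio of nested to host density in the 75 pairs was 684, with an interquartile range of 243 to 1466, and 60 pairs exceeded 100. These ratios depend on the same count minimum. In 65 of the 75 pairs the nested row held at least 80 counts, and it was denser in all 65. Hosts with fewer than 3 counts were set to 3 counts for these ratios, which makes such ratios lower bounds; 14 of the 74 hosts had 0 counts. Each row was counted over its own annotated length, and reads that reach beyond a row shorter than a fragment can raise its density, which was not tested. Among pairs whose nested row has at least 100 exon bases the share with the denser nested row was 88.2%.

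**Figure D1:**
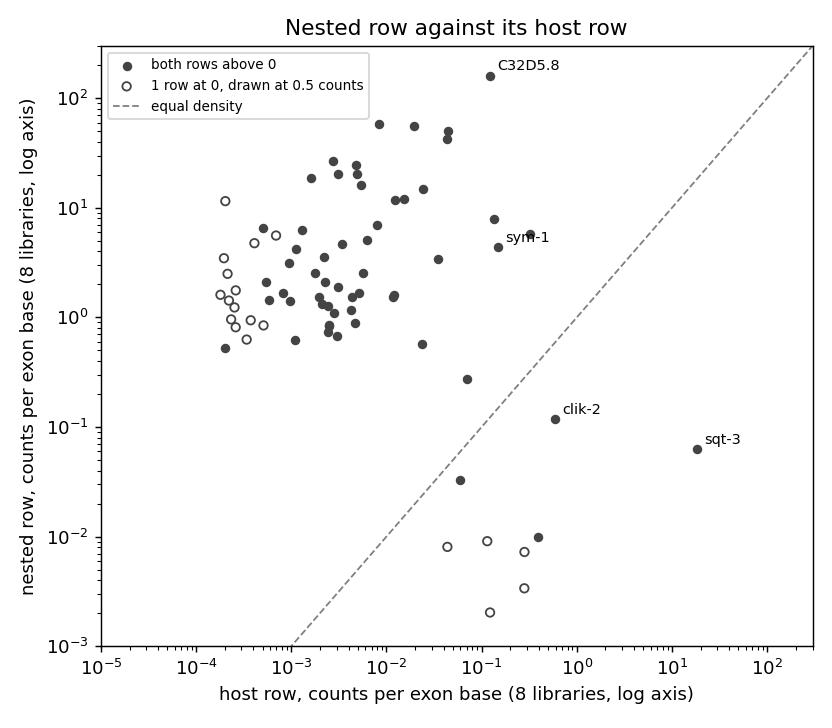
Count density (counts per exon base, summed over the 8 libraries, log axes) of each nested row against its host row for the 75 pairs in which either row held at least 80 counts; open circles mark pairs with 1 row at 0, drawn at 0.5 counts, and the dashed line is equal density. Pairs enter through either row, 65 of them through a nested row of at least 80 counts. In 66 pairs the point lies above the line, and the sqt-3 and clik-2 pairs are among the 9 below it.

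The 9 pairs that ran the other way had hosts of several kinds, and each nested row in them held fewer than 80 counts. F23H12.13, at the 5′ end of sqt-3, a cuticle collagen gene required for body shape, held 9 counts, against 26235 in the sqt-3 row. C53C9.6 held 25 counts, against 1103 in the row of clik-2, a calponin-like gene, and W08D2.11 held 3, against 451 in the row of the cuticle collagen gene col-123. F23H12.13 and W08D2.11 each had counts in a single library. In 5 of the 9 pairs the nested row held 0 counts: F29G9.14 inside fos-1, a bZIP transcription factor of the Fos family (506 counts in the host row), C08A9.12 inside C08A9.3 (651), C54D10.16 inside C54D10.4 (315), F41G3.22 inside agr-1, the worm agrin (210), and Y57G11C.1135 inside Y57G11C.5 (210).

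Detection differed between classes of non-coding rows. Of the 283 nested rows, 187 (66.1%) held at least 1 count and 67 (23.7%) held at least 80. Of 6615 ncRNA and antisense_RNA rows with no coding exon on either strand, 19.5% held a count and 0.529% held at least 80. Of 57 such rows overlapping coding exons only on their own strand, 8 held a count. The 424 rows that share under 90% of their bases with opposite coding exons were detected more often than the nested rows, 339 of them at 1 count or more and 40.3% at 80 counts or more. Median exon length was similar, at 142 bases for nested rows and 139 for rows away from coding exons. These differences between classes of rows were not tested.

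Together the nested rows took 1.36% ± 0.200 of counts in oxidized and 1.31% ± 0.0966 in reduced libraries (SD, n = 4 each). In the oxidized libraries the shares were 1.14%, 1.58%, 1.26% and 1.47% in replicates 1, 2, 3 and 5, and in the reduced libraries 1.28%, 1.23%, 1.30% and 1.45%. The ranges overlap, and the lowest and highest shares both belong to oxidized libraries. Counts were concentrated in few rows: the 10 most abundant held 77.0% of all nested counts, while 148 of the 283 rows had fewer than 10 counts in total and 96 had none.

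The place of a row in its host went with its level. The 25 rows lying mainly in a host 3′ UTR made up 8.83% of the rows and 8.87% of their exon bases but held 66.6% of their counts. Their median density was 1.23 counts per exon base, against 0.0646 for 30 rows in a 5′ UTR, 0.0566 for 209 rows in coding bases and 0.0476 for 19 rows in non-coding exon bases inside the coding span. Among rows of at least 100 bases the medians were 3.59 in 18 rows of 3′ UTRs, 0.0646 in 18 of 5′ UTRs and 0.0431 in 144 of coding bases. The 3′ UTR rows held 59.6% to 72.3% of nested counts in every library, and 8 of the 10 most abundant rows are among them. The level still varied widely within that class, since 5 of the 25 rows had no count. C32D5.18 alone held 23524 of the 56525 counts in that class. The difference between places was not tested.

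**Figure D2:**
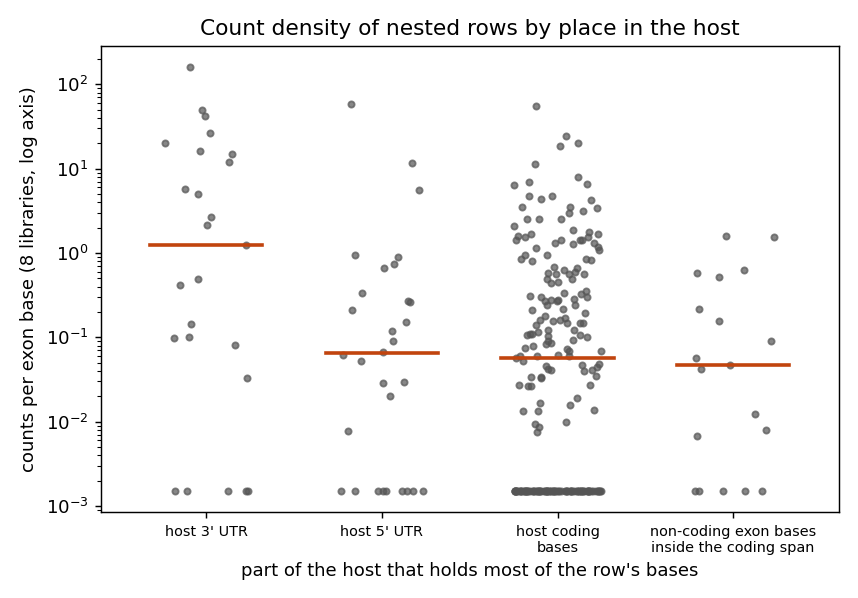
Count density of all 283 nested rows (counts per exon base over the 8 libraries, log axis) by the part of the host that holds most of their bases; points are rows, horizontal bars are medians, and rows with 0 counts are drawn at the bottom of the axis. The 3′ UTR rows have the highest median, 1.23 counts per exon base.

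The most abundant nested row was C32D5.18, at chromosome II 6343088 to 6343234 on the plus strand, in the 3′ UTR of the uncharacterized gene C32D5.8. It held 23524 counts over 147 bases, or 27.7% of all nested counts, and the host row held 91. It stood at 3462, 4002, 3503 and 2339 CPM in oxidized replicates 1, 2, 3 and 5, against 2259, 4202, 4993 and 4287 CPM in the reduced ones. Oxidized replicate 5 and reduced replicate 1 were the low libraries, and the groups overlap.

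The next rows lie opposite genes of protein synthesis and breakdown. Y39G10AR.30 (chromosome I 2315821 to 2315987) lies in the 3′ UTR of eif-2gamma, the subunit of initiation factor 2 that binds GTP and carries the initiator tRNA to the ribosome. It stood at 841, 1674, 1013 and 1132 CPM in oxidized and 1333, 731, 1191 and 1172 CPM in reduced replicates, so the lowest value belongs to reduced replicate 2. T06D8.12 (chromosome II 11237458 to 11237597) lies in the 3′ UTR of rpn-9, a subunit of the regulatory particle of the proteasome. It stood at 1207, 1433, 1283 and 997 CPM in oxidized and 999, 904, 1202 and 819 CPM in reduced replicates. Libraries of the same number share a date in their titles, and replicates 1 and 2, which share the same one, differ in the rest of the title. The labels do not state that same-numbered libraries are pairs. For T06D8.12 the oxidized value was above the reduced one in each of the 4 same-numbered pairs, as in 7.13% of all rows tested, although the groups overlap.

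ZK1010.11 and T06D10.7 are the 2 rows of the top 10 that do not lie mainly in a 3′ UTR. ZK1010.11 (chromosome III 12983652 to 12983754) has 93.2% of its bases in the coding sequence of ZK1010.4, and stood at 959 ± 220.0 CPM in oxidized and 871 ± 202 CPM in reduced libraries (SD, n = 4 each). T06D10.7 (chromosome I 9074581 to 9074668) spans the start of coding sequence in rsbp-1, a partner of R7-type regulators of G-protein signalling, and stood at 822 ± 57.5 CPM in oxidized and 793 ± 166 CPM in reduced libraries (SD, n = 4 each). Per base, both were denser than the 3′ UTR rows of eif-2gamma and rpn-9, at 56 and 58.6 counts against 42.4 and 50.3.

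Several abundant rows lie opposite genes that regulate transcription and cell shape. C41G7.13, in the 3′ UTR of the Iroquois homeobox gene irx-1, averaged 728 ± 320 CPM in oxidized and 805 ± 183 in reduced libraries (SD, n = 4 each). F31E3.8, in the 3′ UTR of ceh-20, a PBC-class homeodomain cofactor of Hox proteins, averaged 419 ± 83.2 CPM in oxidized and 445 ± 131 in reduced libraries (SD, n = 4 each). K08B12.13 lies opposite mrck-1, a kinase that promotes actomyosin contraction, and averaged 719.7 ± 161 CPM in oxidized and 569.7 ± 315 in reduced libraries (SD, n = 4 each). K11C4.8, in the 3′ UTR of the beta-spectrin gene unc-70, stood at 195, 535, 313 and 672 CPM in oxidized and 604, 266, 305 and 497 CPM in reduced replicates. The high libraries for K11C4.8 come from both groups, oxidized replicates 2 and 5 and reduced replicates 1 and 5.

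The remaining rows among the 15 most abundant showed no separation of the groups either. F57A8.9 stood at 243, 672, 451 and 584 CPM in oxidized and 445, 263, 178 and 602 CPM in reduced replicates, with the lowest value in reduced replicate 3. C54G7.11, in the 3′ UTR of lgx-1, varied widely, with 67.3 to 327 CPM in oxidized and 50.7 to 410.1 CPM in reduced libraries. K03B8.22 lies inside des-2, which encodes an acetylcholine receptor subunit, and averaged 134 ± 32 CPM in oxidized and 174 ± 35 in reduced libraries (SD, n = 4 each). ZK1005.2 covers 31 coding bases of tank-1, a relative of the tankyrases, and averaged 105 ± 63.8 CPM in oxidized and 145 ± 75.7 in reduced libraries (SD, n = 4 each).

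The own rows of these hosts were low. C41G7.13, F31E3.8 and K08B12.13 held 4799, 2739 and 4014 counts in all 8 libraries, against 10, 4 and 15 for the irx-1, ceh-20 and mrck-1 rows. K11C4.8 held 2604 counts over 174 bases, against 212 over 8643 exon bases for the unc-70 row. None of the 15 most abundant nested rows shares exon bases with an annotated snoRNA, snRNA, tRNA, rRNA, miRNA, lincRNA or piRNA gene on the host's strand; 5 of the 283 rows do, and these held 64 counts in all.

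**Figure D3:**
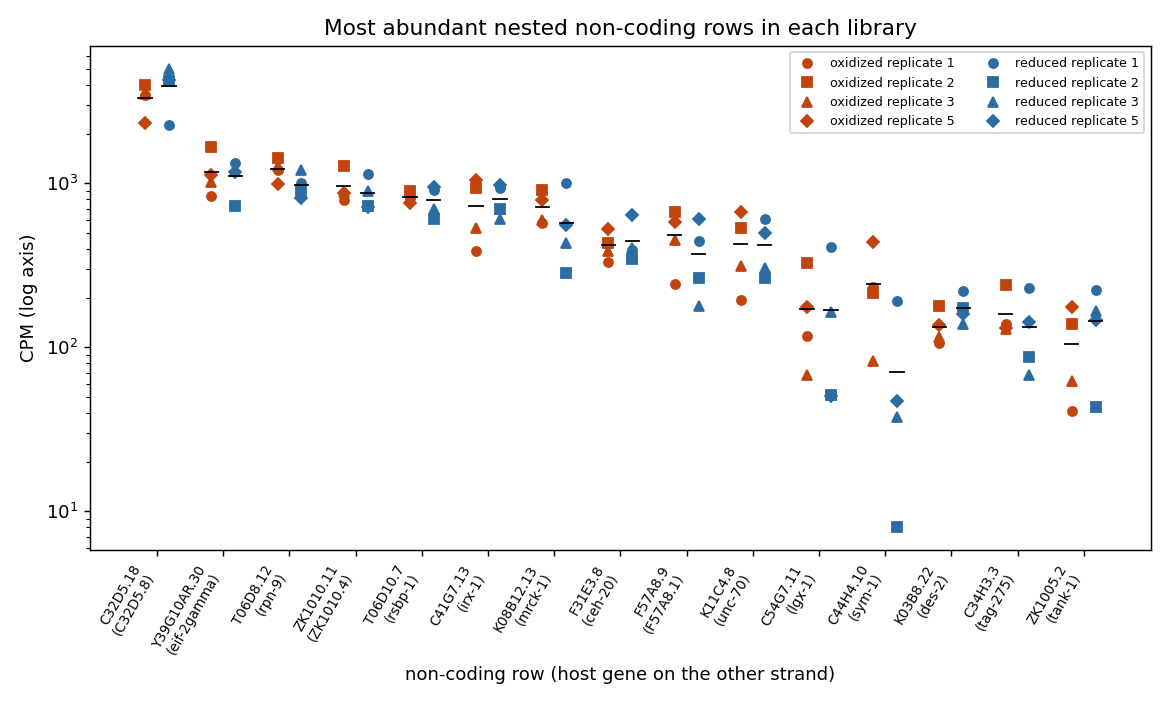
CPM (log axis) of the 15 most abundant nested rows in each library, with the host gene in parentheses; orange marks oxidized libraries, blue marks reduced libraries, marker shape gives the replicate and the short black bar is the group mean. The groups overlap in all 15 rows, and C44H4.10, inside sym-1, has the largest ratio between group means.

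Several hosts can be read at more than 1 place. The potassium channel gene unc-103, an ERG-type channel that dampens excitability, is the only host with 2 tested nested rows. C30D11.3 and C30D11.4 held 126 and 125 counts over 148 and 150 bases. Their values by library did not follow each other: C30D11.3 had 16.3, 17.1, 12.5 and 33.4 CPM in oxidized and 9.35, 6.01, 40.3 and 27.8 CPM in reduced replicates. C30D11.4 had 15.3, 4.27, 23.5 and 10.2 CPM in oxidized and 62.8, 14, 12.5 and 15.7 CPM in reduced replicates. Inside plc-1, a phospholipase C gene, F31B12.9 held 96 counts and F31B12.8 held 0, and inside pqn-57 R09F10.18 held 68 and the longer R09F10.17 held 0. All 10 nested rows of anc-1, which encodes a giant repeat protein that anchors nuclei, held 0 counts, and the anc-1 row held 19. A partly nested row of anc-1, ZK973.19, with 62% of its bases shared, held 20. How reads from repeated sequence were counted is not known, so the 10 rows may not be separate readings.

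Other rows that share at least 20 exon bases with a host from the opposite strand give a further reading. At tag-275, C34H3.3 held 11.5 counts per exon base, against 0.568 for the partly nested C34H3.23. At abl-1, a homolog of the Abl tyrosine kinase, the nested M79.9 held 0.268 counts per exon base and the partly nested M79.6 held 3.34. At smg-3, a gene of nonsense-mediated decay, the nested Y73B6BL.281 held 6 counts, while Y73B6BL.270, a coding row with 59.1% of its bases shared, held 2002. These 3 hosts were picked for their gaps, after their values were seen. Over all 14 hosts at which a nested row and another opposite row each held at least 20 counts, the denser row stood above the sparser one by 1.02-fold to 509-fold, with a median of 6.65-fold. The ratio was under 2 at 3 of these hosts, F46H5.11, trp-4 and unc-103, and over 10 at 5. The highest ratios used long coding rows that share few bases with the host. At sym-1 (509-fold), unc-58 (78.5-fold) and C16B8.2 (36.8-fold) the coding row shares 0.740%, 0.557% and 4.46% of its bases. Those ratios therefore rest mostly on bases outside the host. The coding rows at bli-4 and inx-11 also share few bases, and at clc-8 and lron-14 the other row is a piRNA row of 21 bases.

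The comparison of oxidized with reduced larvae asked which RNAs differ with redox state at 1 age. Of the 283 nested rows, 67, in 66 hosts, passed the filter on low counts and were tested, and 0 passed in either direction. Over all 2315 rows tested, 5 were higher in oxidized larvae (0.216%) and 0 were lower (0.0%) at an adjusted p under 0.05 (edgeR quasi-likelihood test with Benjamini-Hochberg adjustment). At an unadjusted p under 0.05, 3 of the 67 nested rows were higher and 0 were lower, 4.48% together, against 5.27% of all rows, 2.98% higher and 2.29% lower. DESeq2 and limma voom also called 0 nested rows. Adjusted p for nested rows ran from 0.515 to 0.999. The median standard error of their log2 fold changes was 0.62, close to the 0.59 of all rows, so that a change of 2-fold would lie within 2 standard errors for most nested rows.

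Fold changes of the tested nested rows lay between −1.34 and 1.81 on the log2 scale, oxidized over reduced. Of the 67, 43 were above 0 (64.2%) and 24 below, with a median of 0.14, against 45.8% above 0 and a median of −0.05 over all rows tested. In 7 of them the oxidized library was higher in all 4 same-numbered pairs and in 1 it was lower in all 4, against 7.13% and 5.27% of all rows. The groups did not overlap in 1 higher and 1 lower row, against 1.99% and 0.994% of all rows. The 10 most abundant rows had small errors, with fold changes between −0.24 and 0.38 and standard errors between 0.30 and 0.40 (edgeR adjusted p = 0.999 for each).

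C44H4.10 had the lowest p among nested rows. It spans chromosome X 14582879 to 14583101 on the minus strand, with 94.6% of its bases in the coding sequence of sym-1, which encodes a leucine-rich repeat protein secreted by the epidermis into the apical matrix. It stood at 234, 213, 83.0 and 438 CPM in oxidized replicates 1, 2, 3 and 5, against 191, 8.01, 37.6 and 47.1 CPM in the reduced ones. Reduced replicate 1 was the high library of its group and reached into the oxidized range. The difference, 1.81 on the log2 scale (SE 0.59), did not pass the test (edgeR adjusted p = 0.515). The oxidized value was above the reduced one in each of the 4 pairs, by 0.29, 4.65, 1.13 and 3.21 on the log2 scale.

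The call for C44H4.10 depended on the libraries and the model, and it passed in 2 of 19 alternative runs. Without reduced replicate 1, the high library of its group, it passed, at 3.03 on the log2 scale (SE 0.61, edgeR adjusted p = 0.0219). With the date in the titles as a term it did not pass, at 1.72 (SE 0.56, edgeR adjusted p = 0.344). With the replicate number as a block, a pairing that the labels do not establish, it was the 1 nested row called (2.04, SE 0.52, edgeR adjusted p = 0.0438), while 0.475% of all rows were called higher and 0.173% lower. With the labels of replicate 5 exchanged its fold change was −0.18 (SE 0.73, edgeR adjusted p = 0.998). Without both replicate 5 libraries it was at 1.25 (SE 0.63, edgeR adjusted p = 0.977), in the same direction as with all libraries. The titles share the redox label of replicate 5 and the source names contradict it. The sym-1 row itself held 364 counts, at 114, 47.0, 59.5 and 62.4 CPM in oxidized and 40.1, 20.0, 25 and 67.6 CPM in reduced replicates.

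F17C11.20 was the only tested nested row whose oxidized values all lay above its reduced values. It is an antisense_RNA of 148 exon bases inside F17C11.22, for which no row of the table was matched. It stood at 39.7, 42.7, 51.7 and 76.9 CPM in oxidized and 14.7, 8.01, 2.78 and 36.2 CPM in reduced replicates, which is a difference of 1.74 on the log2 scale (SE 0.64, edgeR adjusted p = 0.679). K06C4.20 was the only one whose oxidized values all lay below. It is nested in the coding sequence of mod-1, a serotonin-gated chloride channel, and stood at 9.03, 2.85, 21.9 and 26.1 CPM in oxidized and 29.4, 30, 26.4 and 59.1 CPM in reduced replicates. Its log2 fold change was −1.34 (SE 0.66, edgeR adjusted p = 0.944). Neither difference passed the test, and the lowest value of each row rests on fewer than 3 counts.

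The other rows with the smallest p in each direction had wider overlap. Y67A6A.3, inside F35C12.3, had a log2 fold change of 1.27 (SE 0.61), Y37E11B.11 of 1.39 (SE 0.78), Y42A5A.8 of 1.17 (SE 0.63) and K01D12.18 of 1.02 (SE 0.57). On the lower side, C30D11.4, inside unc-103, stood at −0.93 (SE 0.72) and AC3.14, inside the cuticle collagen col-151, at −0.91 (SE 0.68). Y5H2A.5 lies inside abu-4, which encodes a glutamine- and asparagine-rich protein of the pharyngeal cuticle, and stood at −0.86 (SE 0.71). Y58A7A.8 stood at −0.83 (SE 0.70), and C05B10.17, inside lip-1, a phosphatase that inactivates MAP kinase, at −0.63 (SE 0.54). Their edgeR adjusted p values ran from 0.922 to 0.999. Single libraries moved several of these values: C30D11.4 was at −0.08 without reduced replicate 1, Y37E11B.11 at 0.46 without oxidized replicate 2, and Y58A7A.8 at −1.84 without oxidized replicate 3 and −0.22 without reduced replicate 3. Y5H2A.5 was at 0.34 without reduced replicate 1. The annotated name of Y58A7A.8 is shared with another gene, and abu-4 belongs to a family of similar genes; how reads from similar copies were counted is not known.

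**Figure D4:**
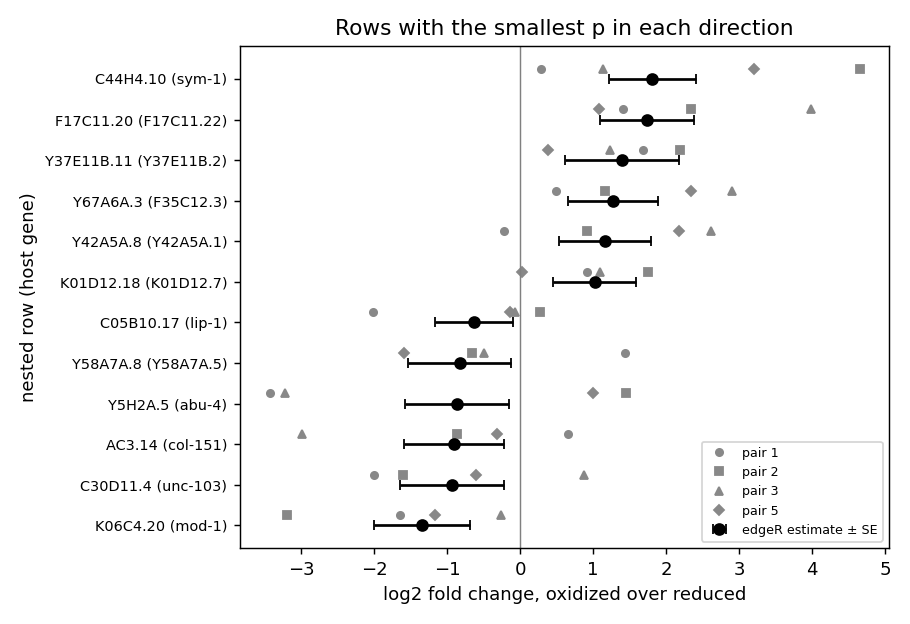
Log2 fold change, oxidized over reduced, of the 6 tested nested rows with the smallest p in each direction; black points are edgeR estimates with standard error bars and grey markers are the 4 same-numbered pairs, computed from CPM with 0.5 added. C44H4.10 is the highest at 1.81 and K06C4.20 the lowest at −1.34, and the grey markers of several rows fall on both sides of 0.

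Grouped by what their hosts do, only 59 of the 283 nested rows fell on any of 16 lists built from gene names, which do not hold every gene of a kind. The 224 rows on no list held 69296 counts. The list of neuronal signalling, channels and receptors was the largest, with 16 nested rows in 15 hosts, of which 15 rows held counts. It does not hold des-2 or mod-1, whose rows K03B8.22 and K06C4.20 are described above. Of the 8 tested rows on the list 4 lay above 0 and 4 below, and 0 were called. The more abundant rows on the list lie inside cca-1, a T-type calcium channel gene (C54D2.11, 37.8 ± 7.61 CPM in oxidized and 34.6 ± 31.9 CPM in reduced libraries), and acr-2, an acetylcholine receptor subunit of motor neurons (K11G12.9, 39.4 ± 24.5 CPM in oxidized and 30.8 ± 16.6 CPM in reduced libraries). C02D4.12, inside the tyramine receptor gene ser-2, stood at 33.0 ± 11.4 CPM in oxidized and 30.6 ± 25.2 in reduced libraries (SD, n = 4 each, here and for the rows just named). In the own rows of that list, 28 of 413 coding rows were tested and 0 were called in either direction.

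The list of transcription factors had 7 nested rows, of which 3 were tested and 0 called; it does not hold irx-1, fos-1, ham-2, dmd-4 or ets-5. Beside F31E3.8 at ceh-20 the tested rows on the list were C48D5.8, inside the NR4A-type nuclear receptor gene nhr-6, and F44C4.9, inside the nuclear receptor gene nhr-37. C48D5.8 stood at 14.4, 32.7, 68.9 and 180.0 CPM in oxidized and 92.2, 36, 57.0 and 66.4 CPM in reduced replicates, with both the lowest and the highest value in oxidized libraries. F44C4.9 stood at 18.1, 15.7, 50.1 and 4.36 CPM in oxidized replicates, against 0, 6.01, 0 and 25.3 CPM in the reduced ones, and the groups overlap. Of 460 own rows of transcription factor genes 19 were tested, with 1 called higher and 0 lower. Over all 2315 rows tested, 5 were called higher (0.216%) and 0 lower. The own rows of cuticle collagens (83 tested) and of glycolysis and central metabolism (24 tested) also had 1 called higher and 0 lower each.

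The list of basement membrane and apical matrix genes had 4 nested rows, of which C44H4.10 was the only one tested. The cytoskeleton list had 11 nested rows in only 2 hosts, the 10 rows of anc-1 and K11C4.8 of unc-70. Cuticle collagens were hosts of 12 nested rows, which held 241 counts together, and AC3.14 was the only one tested. No nested row lay inside a gene of the lists for ribosomal proteins, chaperones, mitochondrial respiration, central metabolism, proteases or antioxidant enzymes. The nested rows therefore say nothing about the genes of these lists. The lists do not hold every gene of a kind: bli-4, the host of K04F10.8 (241 counts), is not on the protease list.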

How the data were processed

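The authors deposited raw counts per annotated gene for whole-worm RNA, under a name that gives HTSeq as the counting program. Per the labels' protocols, ribosomal RNA was removed from 100 ng of RNA before stranded libraries were made (15 PCR cycles) and sequenced as 50 nt read pairs, whereas the molecule label gives polyA RNA. Tools in the submitters' processing notes are TopHat2 2.0.13, Cuffdiff 2.1.1, Cufflinks, FastQC 0.11.3 and Bowtie2 2.2.1. The genome build, annotation and strand setting behind the counts are not stated in the sources used here. Columns matching no sample (2) were not used.

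Row names were matched to Ensembl release 115 (WBcel235) by sequence name: 44933 rows matched and 528, with 0.363% of counts, did not. Nested rows and hosts were found with Python 3.11.15 on merged exons. The differential test was edgeR 4.0.16 in R 4.3.3 (filterByExpr, TMM factors, glmQLFit with robust = TRUE and legacy = FALSE), run on the whole table, 4 oxidized against 4 reduced libraries, adjusted over 2315 rows by Benjamini-Hochberg; the standard error is the log2 fold change divided by the root of F. DESeq2 1.42.0 and limma 3.58.1 were alternatives. CPM uses all counts and TMM factors. The fit was also run on counts simulated with the spread estimated from these data and without date or replicate effects. That run cannot show whether the fit suits these libraries.

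Libraries were not treated as paired, because the labels do not state that same-numbered libraries are pairs. Replicates 1 and 2 share a date but differ in the rest of the title, so pairs are possible. The fit with the replicate number as a block is given as an alternative. No 2 libraries had identical counts. The labels call replicates biological but do not say more, so p-values weigh the group difference against the spread between these samples only. In the main fit that spread includes any difference between dates.

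Rows named are the 15 most abundant, any called, the 6 with the smallest p per direction, up to 4 per host list with at least 2 tested, up to 8 pairs with the densest host row, and hosts with 2 tested rows; further rows at shared hosts were chosen after their values were seen. The nested rows, host lists and rules were chosen with earlier results of these data known.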

Additional observations from a re-analysis of the deposited data

Results flagged for a closer look

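Of 82 groups of 4 values checked for a library far from the other 3, 7 stood out. The 4.1 given by chance assumes normally distributed values, which these CPM are not. A group with counts in a single library always stands out, so 7 and 4.1 cannot be compared. Reduced replicate 1 was high for Y5H2A.5, inside abu-4, at 219 CPM, for C30D11.4, inside unc-103, at 62.8 CPM, and for C53C9.6, inside clik-2, at 20.0 CPM. Reduced replicate 5 was high for K06C4.20, inside mod-1, at 59.1 CPM. Oxidized replicate 2 was high for C34H3.3, inside tag-275, at 239 CPM. F23H12.13, inside sqt-3, had counts only in oxidized replicate 1, at 8.13 CPM, and W08D2.11, inside col-123, only in reduced replicate 2, at 3.00 CPM, which is that library's 3-count floor.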

How the results depend on the processing

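No nested row was called lower by any alternative run, and 1, C44H4.10, was called higher with the replicate block and without reduced replicate 1 (0 to 1 over the fits without 1 library); 0 were called by the others. Over all rows, higher calls numbered 9 with every row of at least 1 count, 9 with DESeq2, 3 with limma voom, 3 with legacy quasi-likelihood, 11 with the replicate block, 10 with date as a term, 0 with replicate 5 exchanged and 1 to 12 without 1 library. Lower calls numbered 1 with every row of at least 1 count, 4 with the replicate block, 2 with date as a term and 0 to 3 without 1 library. With the replicate block C44H4.10 was at 2.04 and no other call among nested rows changed. Same-numbered libraries deviated together by correlations of 0.0576, −0.159, 0.129 and 0.302, and 4 of 8 libraries correlated best with their own number. These values cannot decide whether the libraries are pairs, since replicates 1 and 2 share a date and the libraries are few. Of 228 fold changes of 12 single rows, 223 kept direction and side, and 2, both of C44H4.10, newly passed. The other 3 reversed: with replicate 5 exchanged, C44H4.10 was at −0.18 and Y42A5A.8 at −0.19, and without 1 library Y5H2A.5 ran from −1.69 (oxidized replicate 5) to 0.34 (reduced replicate 1), with −1.78 without both replicate 5 libraries; the cause was not tested. The median fold change stayed within −0.00 and 0.33. Among pairs chosen after the data were seen, the nested row was denser in 85.0% of all with a count and in 43.8% of those whose host row held at least 80. Nested rows numbered 325 at 80% and 195 at 100% nesting. Their share of counts was 2.04% in oxidized and 1.99% in reduced libraries without the 10 most abundant rows in the total, 3.96% and 4.31% with the left-out rows put back, and 1.03% and 0.917% without C32D5.18. Depth left 216 of 283 nested rows untested.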
